A study of Homo sapiens with 3 samples.

Results

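The expression of 9 genes of the p53 pathway was followed in RNA sequencing libraries of HGC-27 cells (an established line derived from undifferentiated human gastric cancer): MDM2, MDM4, CDKN1A, TP53INP1, SESN1, SESN2, ZMAT3, RRM2B and GDF15. They were chosen by name, as the inhibitors of p53 and a set of its best known target genes. Earlier results of these data were known when they were chosen. Each matched 1 row, so the set holds 9 of the 50868 genes in the deposited table. Cells at passage 6 carried 1 of 3 siRNAs for 48 h: a control siRNA, IRF3 siRNA or YAP siRNA. IRF3 is known for switching on interferon genes during viral infection, and YAP is the coactivator that the Hippo pathway restrains. Each condition had 1 library, so no value below has a replicate check and no test across samples could be made. Every interval covers counting error only, and it leaves out the variation between cultures. Read copies made by PCR are not independent molecules, so even counting error may be larger than shown.

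p53 is a transcription factor that is activated by DNA damage and other stresses and switches on genes for cell cycle arrest, repair, antioxidant defence and cell death. MDM2 is the ubiquitin ligase that marks p53 for degradation and is itself a p53 target, which closes a negative feedback loop. MDM4 is its relative that binds p53 and blocks its activity. In bulk RNA, fewer cells that express a gene and less RNA per cell cannot be told apart.

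The libraries held 13949401 (control), 14941556 (IRF3 siRNA) and 14385959 (YAP siRNA) counts assigned to genes. YAP1 had 861, 561 and 337 counts in that order, a ratio to control of 0.380 with YAP siRNA (95% interval 0.334 to 0.431) and 0.608 with IRF3 siRNA (0.546 to 0.677). IRF3 had 681, 597 and 764 counts, and its ratio with its own siRNA was 0.818 (0.732 to 0.915), so it checks the label of that library only weakly. Below, knockdown names the siRNA that was given and not a measured loss of its target. The epithelial markers KRT8, KRT18, KRT19, EPCAM and CDH1 were all below 1 FPKM in every library, with KRT8 highest at 0.403 in the control, while the mesenchymal VIM stood at 451 to 511, SPARC at 46.3 to 59.5 and FN1 at 6.16 to 9.33 FPKM. CDH2, also a mesenchymal marker, was as low as the epithelial ones, at 0.056 to 0.130 FPKM. Leukocyte and endothelial markers were at 0.332 FPKM or less, and the erythroid HBB stood at 4.09 to 4.79 FPKM.

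The p53 response element is a pair of decamers to which the p53 tetramer binds. The RefSeq windows of 300 bases around each annotated transcript start (250 before, 50 after, build GRCh38.p14) were searched for this consensus, with the decamers adjacent and up to 3 mismatches. The consensus is its own reverse complement, so 1 search covers both strands. Such a match is held by 5.20% of all 35116 windows, and one with up to 2 mismatches by 0.649%. The table had 13 windows for 7 of the genes, and 4 windows of 3 genes held a match: 2 nearly identical windows of MDM2 with 2 mismatches, and 1 window each of SESN1 and GDF15 with 3 mismatches. A window of each of these 3 genes is shown, and capitals mark its best match. Further matches within the limit were not marked, and the MDM2 window holds such a match just downstream of its capitals. The windows shown lie at chr12:68808767-68809066 (+ strand), chr6:109008939-109009238 (- strand) and chr19:18385908-18386207 (+ strand).
MDM2, inner start: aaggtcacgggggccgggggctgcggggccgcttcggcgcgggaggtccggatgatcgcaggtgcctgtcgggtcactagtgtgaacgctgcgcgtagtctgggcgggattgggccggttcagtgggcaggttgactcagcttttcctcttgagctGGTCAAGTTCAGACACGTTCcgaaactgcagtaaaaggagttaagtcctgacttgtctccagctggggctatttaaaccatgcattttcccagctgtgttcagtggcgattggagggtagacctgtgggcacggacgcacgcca
SESN1, inner start: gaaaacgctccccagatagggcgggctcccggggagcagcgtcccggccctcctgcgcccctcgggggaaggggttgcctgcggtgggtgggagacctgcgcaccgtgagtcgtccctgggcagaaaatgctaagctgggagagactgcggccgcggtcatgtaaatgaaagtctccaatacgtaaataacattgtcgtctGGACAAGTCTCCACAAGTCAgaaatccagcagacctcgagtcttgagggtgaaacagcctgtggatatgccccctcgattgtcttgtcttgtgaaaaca
GDF15: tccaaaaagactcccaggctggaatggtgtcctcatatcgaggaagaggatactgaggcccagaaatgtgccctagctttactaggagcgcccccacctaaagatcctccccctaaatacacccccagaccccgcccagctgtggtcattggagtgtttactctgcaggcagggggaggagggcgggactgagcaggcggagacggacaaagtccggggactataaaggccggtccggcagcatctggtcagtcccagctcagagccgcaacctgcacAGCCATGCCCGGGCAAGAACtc
The marked match of MDM2 lies upstream of its inner start, the promoter of its first intron, which is known to respond to p53. Its outer windows, which begin at 68807922 and 68807927, held no match with up to 3 mismatches. Counts are given per gene, so transcripts from the inner and the outer start could not be separated here. A match is a description of these letters, and none of these windows was measured for binding in this study. The windows of CDKN1A, SESN2, MDM4 and ZMAT3 held no match with up to 3 mismatches, and TP53INP1 and RRM2B had no window. Sequence outside the windows was not searched, so a lack of matches does not mean that a gene lacks a p53 site.

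Levels in the control library spanned a wide range. They are given here as FPKM (counts per kilobase of exon, scaled to the library total) recomputed on the union exon length of GENCODE release 29, with an exact Poisson 95% interval. CDKN1A, which encodes the cyclin-dependent kinase inhibitor p21, was highest at 60.8 (58.5 to 63.2). SESN2, a stress-induced inhibitor of mTORC1 signalling, followed at 20.7, and GDF15, a secreted stress hormone, at 13.1 (11.8 to 14.5). TP53INP1, a regulator of autophagy and of p53 activity, stood at 2.84 (2.48 to 3.24), SESN1, the sestrin paralog, at 2.14 (1.82 to 2.51), and MDM4 at 1.69 (1.49 to 1.91). ZMAT3, an RNA-binding zinc finger protein, stood at 1.05 (0.882 to 1.24), RRM2B, the p53-inducible small subunit of ribonucleotide reductase, at 0.982 (0.774 to 1.23), and MDM2 was lowest at 0.583 (0.478 to 0.704). The neighbours TP53INP1 and SESN1, SESN1 and MDM4, and ZMAT3 and RRM2B had overlapping intervals, and their order was not tested.

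**Figure D1:**
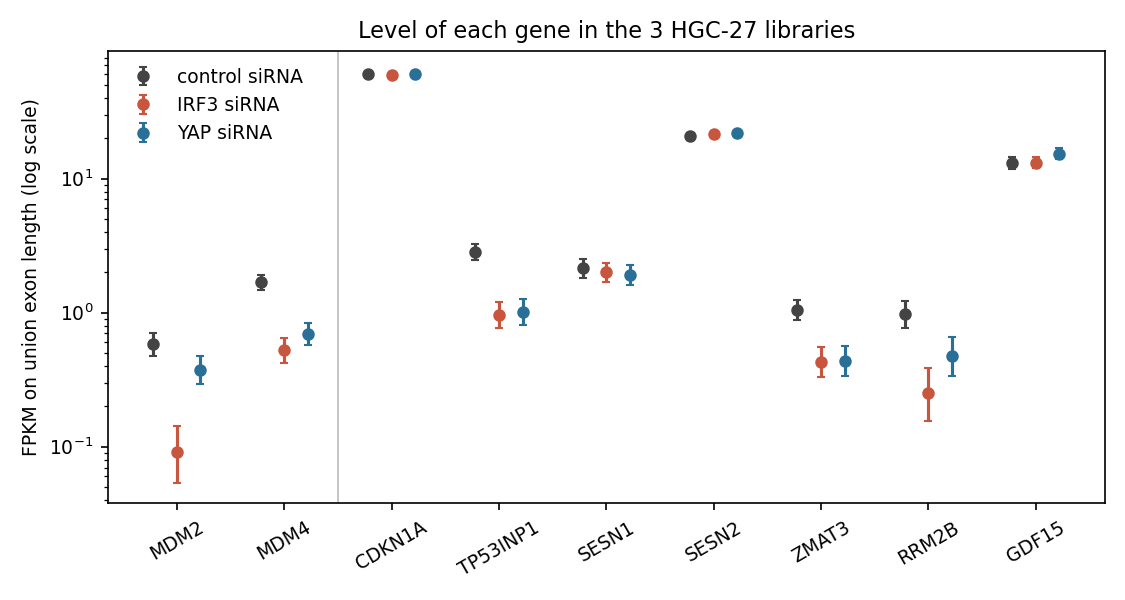
Level of each of the 9 genes in the control, IRF3 siRNA and YAP siRNA libraries, as FPKM on the union exon length (log scale), with exact Poisson 95% intervals. The grey line separates the p53 inhibitors from the target genes. CDKN1A, SESN2 and SESN1 sit level across the 3 libraries, while MDM2, MDM4, TP53INP1, ZMAT3 and RRM2B are lower in both knockdown libraries than in the control.

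The deposited FPKM gave these genes other levels, because the gene length behind it is not the union of exons. That length, recovered from the counts, was within 1% of the sum of all distinct exons, overlapping ones counted repeatedly, for 87.0% of 13224 genes, and within 1% of the union for 11.1%. Over these genes it was 1.53 times the union length at the median. For MDM4, with 17 annotated transcripts, it was 40251 bp against a union of 11008 bp, or 3.66 times, a ratio that 99.1% of genes do not exceed. It was 2.05 times the union for CDKN1A, 2.02 times for MDM2 (26827 against 13284 bp) and equal to it for SESN2, which has 1 annotated transcript. The deposited control level of MDM4 was therefore 0.461 FPKM, below ZMAT3 (0.847) and RRM2B (0.544), whereas on the union length it was above both. Count ratios between libraries do not depend on this length, but ratios of FPKM plus 1 and the 1 FPKM filter do. With the union length 12052 genes reached 1 FPKM in place of 11103, and again none of the members kept passed 2-fold in any comparison.

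**Figure D2:**
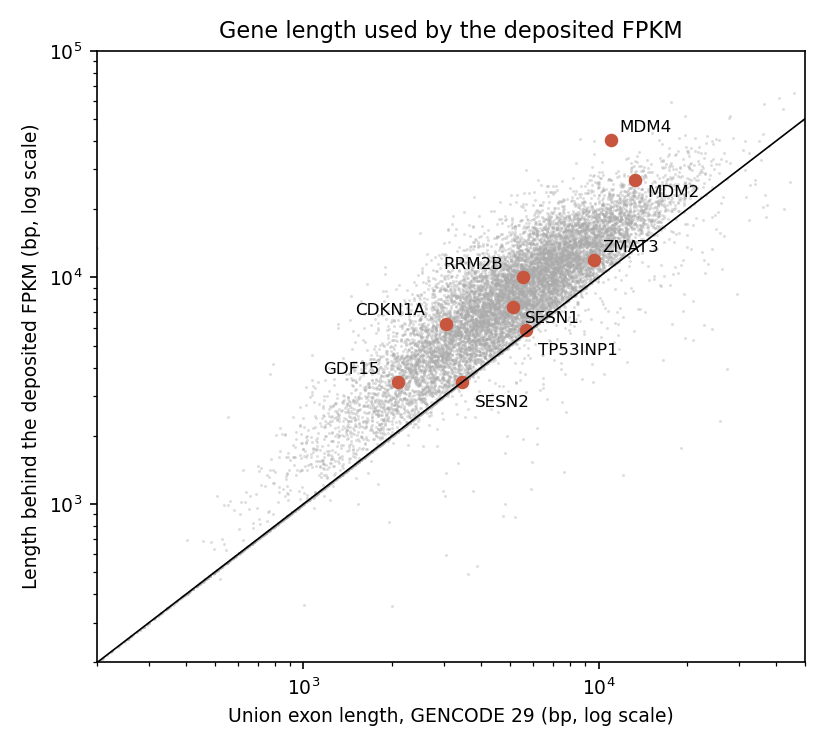
Gene length behind the deposited FPKM against the union exon length of GENCODE 29 (both in bp, log scales) for genes with a mean count of at least 30, with the 9 genes in red and the line of equality. SESN2 lies on the line at 3453 bp and MDM4 is farthest above it of the 9 genes, at 3.66 times its union length.

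On the scale chosen for all genes, log2 of FPKM plus 1 with a mean of at least 1 FPKM, only 5 of the 9 genes were kept. MDM2, MDM4, ZMAT3 and RRM2B had mean deposited levels of 0.173, 0.265, 0.517 and 0.316 FPKM and fell under this filter. TP53INP1 passed it through the control library alone. None of the 5 reached 2-fold in any of the 3 comparisons. Of all 11103 genes kept, 0.612% were lower and 0.387% higher by 2-fold with IRF3 siRNA against control, 0.468% and 0.351% with YAP siRNA against control, and 0.315% and 0.297% with IRF3 against YAP siRNA. TP53INP1 came closest, with log2 ratios of -0.95 and -0.92 against control. At these low levels a pseudocount of 1 FPKM hides most of a ratio: MDM2 had a log2 ratio of -0.30 on this scale with IRF3 siRNA, beside -2.68 from its counts. The genes are therefore described below by the ratio of their counts per column total, over genes with a mean count of at least 30. All 9 genes passed that minimum, which was set after the values were seen. RRM2B, with 76, 21 and 38 counts (control, IRF3 and YAP siRNA), passed it only with its control count included.

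By that ratio, 5 of the 9 genes were lower by 2-fold or more with IRF3 siRNA (MDM2, MDM4, TP53INP1, ZMAT3 and RRM2B), beside 5.77% of all 13248 genes, and none was higher by 2-fold (0.581% of all genes). With YAP siRNA 4 of them were lower by 2-fold or more, all of the former but MDM2, beside 4.94% of all genes, and none was higher (0.589%). With library sizes scaled by TMM the number with YAP siRNA was 3, since RRM2B no longer reached 2-fold. The other 4 genes, CDKN1A, SESN1, SESN2 and GDF15, had ratios between 0.894 and 1.17 in both comparisons. Both comparisons share the control library, so a high control value lowers both ratios. The genes were chosen with earlier results of these data known, so the counts of genes past 2-fold are a description only. The median log2 count ratio of the 9 genes was -1.28 with IRF3 siRNA and -0.63 with YAP siRNA, beside -0.10 and -0.08 over all genes.

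The inhibitors were both lower. MDM2 (ENSG00000135679, chromosome 12, 68808172 to 68850686, hg38) had 108 counts in the control, 18 after IRF3 knockdown and 72 after YAP knockdown. The control was highest and the IRF3 siRNA library far below both others. Its ratio to control was 0.156 (0.089 to 0.258) with IRF3 siRNA, a 6.43-fold lower value, and 0.646 (0.473 to 0.879) with YAP siRNA. The former was at percentile 0.128 of all genes and the latter at 13.9. MDM2 shares exon sequence with CPM, a carboxypeptidase gene on the opposite strand with 19, 6 and 15 counts, and with RP11-611O2.3, with 2, 7 and 3 counts. Whether the counting used strand is not stated, so reads of MDM2 and CPM cannot be told apart where their exons overlap. Summed over the cluster of overlapping genes, the counts were 129, 31 and 90, and the ratios to control 0.224 and 0.677.

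MDM4 (ENSG00000198625, chromosome 1, 204516379 to 204558120) had 259 counts in the control library, 87 in the IRF3 siRNA library and 110 in the YAP siRNA library. Both knockdown libraries were well below the control and close to each other. Its ratios to control were 0.314 (0.243 to 0.401) and 0.412 (0.326 to 0.517), so the second interval reaches just past 0.5.

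Among the targets that act in arrest and stress defence, CDKN1A, SESN1 and SESN2 were level across the libraries. CDKN1A (ENSG00000124762, chromosome 6, 36676460 to 36687339) had 2587 control counts, 2695 after IRF3 and 2666 after YAP siRNA, and ratios of 0.973 (0.921 to 1.03) and 0.999 (0.946 to 1.05). Both intervals include 1 and are the narrowest of the 9 genes. SESN2 (ENSG00000130766, chromosome 1, 28259527 to 28282491) had 997, 1103 and 1087 counts and ratios of 1.03 (0.947 to 1.13) and 1.06 (0.969 to 1.15). SESN1 (ENSG00000080546, chromosome 6, 108986437 to 109094819) had 153, 153 and 141 counts. Its ratios of 0.934 (0.741 to 1.18) and 0.894 (0.706 to 1.13) are less precise, and a 2-fold difference lies outside both intervals. SESN3, the remaining sestrin, had ratios of 0.630 (0.564 to 0.703) and 0.777 (0.700 to 0.863).

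TP53INP1 (ENSG00000164938, chromosome 8, 94925972 to 94949411) had 225 control counts against 82 after IRF3 and 83 after YAP siRNA. The knockdown libraries were nearly equal, at ratios to control of 0.340 (0.261 to 0.440) and 0.358 (0.275 to 0.462), and both intervals end below 0.5. ZMAT3 (ENSG00000172667, chromosome 3, 179017223 to 179072279) showed the same arrangement, with 141, 62 and 61 counts. Its ratios were 0.411 (0.299 to 0.557) and 0.419 (0.305 to 0.570), and their intervals include 0.5.

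RRM2B (ENSG00000048392, chromosome 8, 102204502 to 102239118), which supplies deoxynucleotides for repair outside S phase, had the fewest counts in the control, with 76 there, 21 in the IRF3 siRNA library and 38 in the YAP siRNA library. Its libraries stepped down from control to YAP siRNA to IRF3 siRNA. Against control the ratios were 0.258 (0.151 to 0.423) and 0.485 (0.319 to 0.725). GDF15 (ENSG00000130513, chromosome 19, 18374731 to 18389176) was the single gene of the 9 with a ratio interval above 1. It had 381, 410 and 461 counts, with ratios of 1.005 (0.872 to 1.16) for IRF3 knockdown and 1.17 (1.02 to 1.35) for YAP knockdown.

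**Figure D3:**
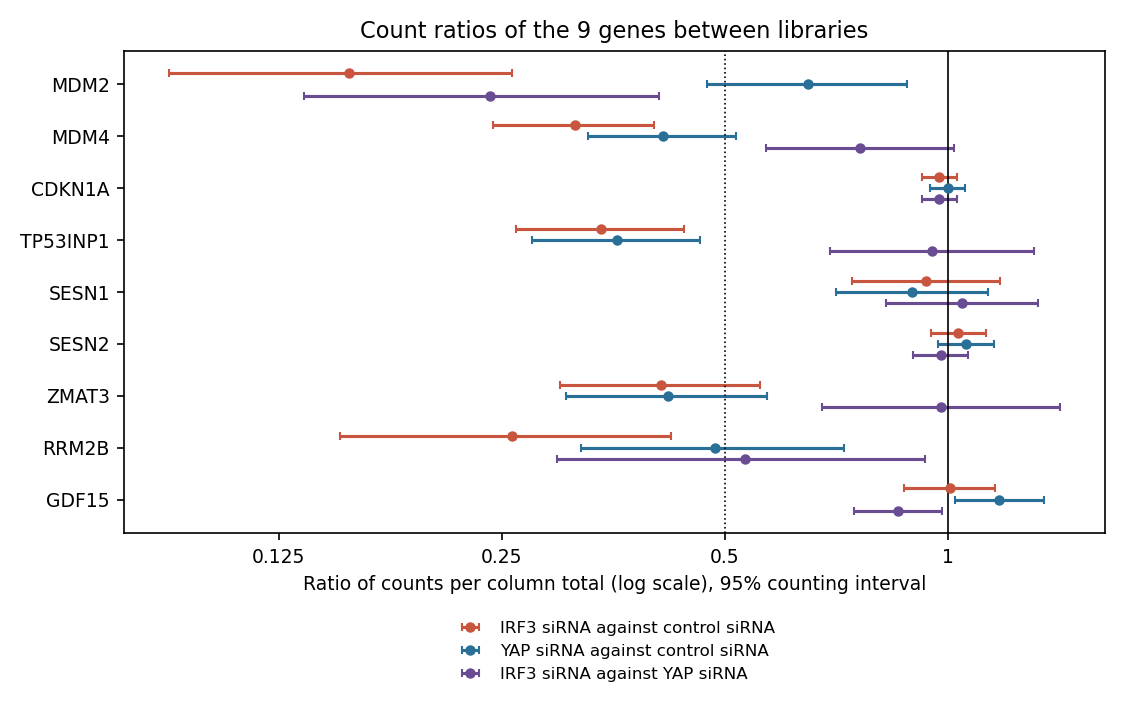
Ratio of counts per column total (log scale) for the 9 genes in the 3 comparisons, with exact 95% counting intervals, a solid line at 1 and a dotted line at 0.5. MDM2 with IRF3 siRNA is farthest left at 0.156, and CDKN1A, SESN1, SESN2 and GDF15 lie between 0.856 and 1.17 in every comparison.

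The direct comparison of IRF3 with YAP siRNA leaves out the control. MDM2 was the single gene of the 9 lower by 2-fold or more with IRF3 siRNA, beside 0.777% of all genes, and none was higher by 2-fold (0.604%). MDM2 had 18 against 72 counts, a ratio of 0.241 (0.135 to 0.408). Summed over its overlapping genes the ratio was 0.332. RRM2B had a ratio of 0.532 (0.297 to 0.930) and GDF15 one of 0.856 (0.748 to 0.980), both with intervals below 1. For MDM4 the ratio was 0.761 (0.568 to 1.02), and the intervals of the remaining 5 genes also included 1. TP53INP1 at 0.951 and ZMAT3 at 0.979 were thus apart from the control in both knockdown libraries and not from each other beyond counting error.

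The 5 genes with low ratios share features of length and GC content. Their union exon lengths were 13284 bp (MDM2), 11008 bp (MDM4), 9646 bp (ZMAT3), 5676 bp (TP53INP1) and 5548 bp (RRM2B), and the GC content of their transcripts was between 39.5% and 43.2%. CDKN1A, SESN2 and GDF15 were shorter, at 3050, 3453 and 2087 bp, and richer in GC, at 58.6%, 59.5% and 60.2%. SESN1 goes against this division, with 5121 bp, 41.2% GC and ratios near 1. Genes of at least 5000 bp with at most 45% GC, limits chosen after the values were seen, had median log2 count ratios of -0.54 (IRF3 siRNA) and -0.47 (YAP siRNA). Of these 2490 genes 17.8% were lower by 2-fold or more after IRF3 knockdown, 15.7% after YAP knockdown and 0.803% between the knockdowns. Of the 6 genes of the set within these limits, 5, 4 and 1 were. The part of length and GC content in the ratios of single genes was not tested.

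With an additive trend of level, length and GC content over all genes removed, the log2 count ratios with IRF3 siRNA were -1.90 for MDM2, -1.45 for RRM2B, -1.08 for TP53INP1, -1.004 for MDM4 and -0.62 for ZMAT3. Thus 4 of the 9 genes stayed at 2-fold or more, beside 1.32% of all genes, with MDM4 at the threshold. With YAP siRNA TP53INP1 alone did, at -1.08, beside 1.19% of all genes, while MDM4 had -0.68, ZMAT3 -0.67, RRM2B -0.63 and MDM2 0.09. The other 4 genes, CDKN1A, SESN1, SESN2 and GDF15, had -0.29, 0.34, -0.16 and -0.24 with IRF3 siRNA. Their values with YAP siRNA were -0.21, 0.20, -0.07 and 0.04. In the direct comparison MDM2 had -1.98 with the trend removed, beside 0.606% of all genes past 2-fold lower. MDM2 was thus low with IRF3 siRNA against both other libraries with and without this trend, from 18 counts.

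**Figure D4:**
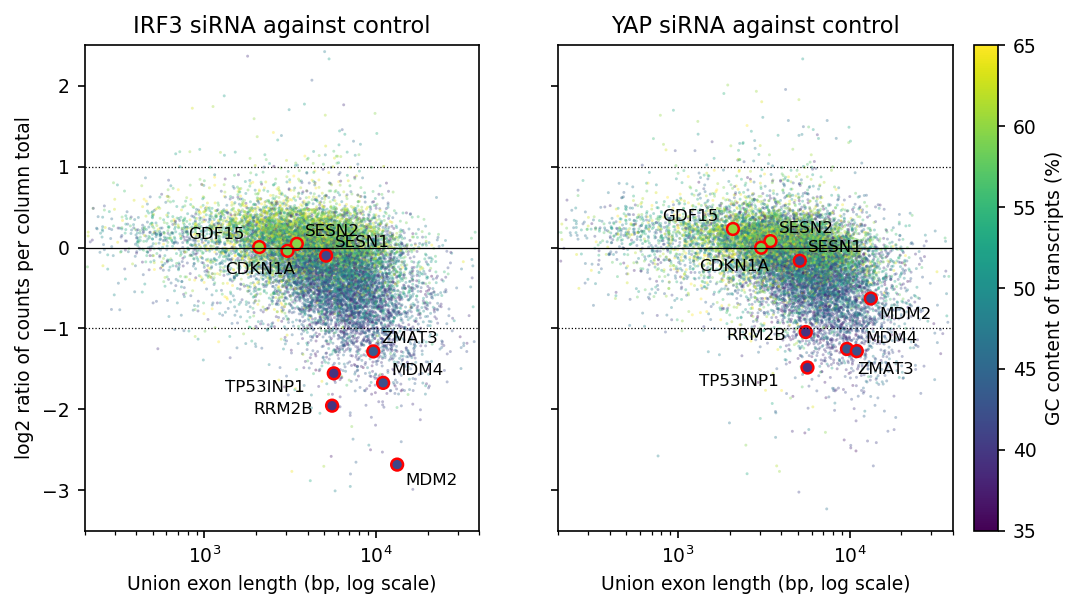
Log2 ratio of counts per column total against union exon length (bp, log scale) for genes with a mean count of at least 30, in IRF3 siRNA (left) and YAP siRNA (right) against control, coloured by GC content, with the 9 genes circled in red and dotted lines at 2-fold. Points beyond the axis limits are not drawn. Long genes of low GC content lie below 0 on the whole, and MDM2 with IRF3 siRNA, at -2.68, lies at percentile 0.378 of genes of like length (10 classes of equal size).

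The rest of the pathway was read from 7 lists. Over the 118 other p53 target genes with a mean count of at least 30, the median log2 count ratio was -0.09 with IRF3 siRNA and -0.04 with YAP siRNA, beside -0.10 and -0.08 over all genes. Of these, 4 (3.39%) were lower by 2-fold or more with IRF3 siRNA and 2 (1.69%) with YAP siRNA, shares under those of all genes, and 1 was higher in each. In the direct comparison 2 (1.69%) were lower by 2-fold or more and none was higher, a share above the 0.777% of all genes. Over all 7 lists, 8 genes were past 2-fold by counts with IRF3 siRNA, and with the trend of level, length and GC content removed 0 of them were. For YAP knockdown 2 of 5 were, PRKDC at a log2 ratio of -1.03 and SHISA5 at 1.11. On the FPKM plus 1 scale 1 gene of the target lists, SHISA5, passed 2-fold, with YAP siRNA. Of the 36 upstream regulators kept on that scale 1, PRKDC, was lower by 2-fold or more in both knockdowns, at -1.25 and -1.39. Of all genes kept, 0.612% and 0.468% were.

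**Figure D5:**
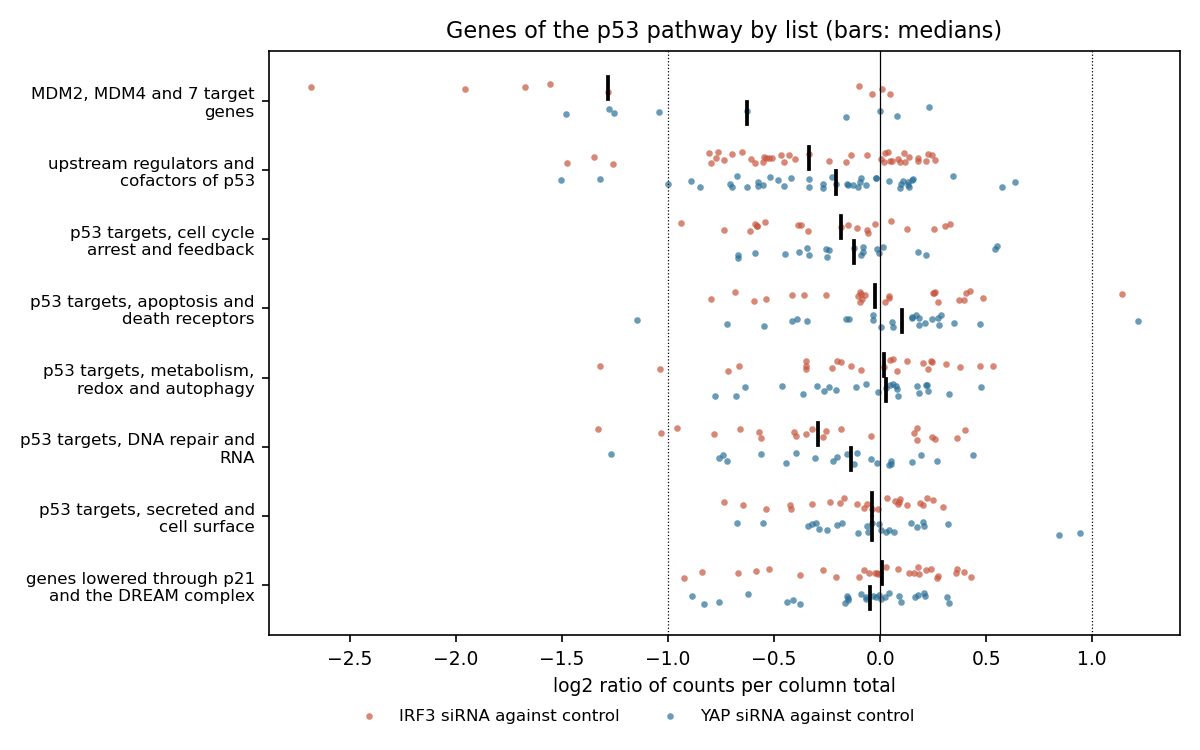
Log2 ratio of counts per column total for the 9 genes and for 7 lists of p53 pathway genes with a mean count of at least 30, in both knockdowns against control. Each point is 1 gene, black bars are medians, and dotted lines mark 2-fold. The medians of the lists lie between -0.33 and 0.10, and SHISA5 is the single gene past 2-fold higher.

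For arrest and feedback genes 21 of 22 reached the minimum and stayed within 2-fold. Their medians were -0.19 (IRF3 siRNA) and -0.12 (YAP siRNA). PLK2, a polo-like kinase, had ratios of 0.522 (0.491 to 0.553) and 0.838 (0.795 to 0.883), and NDRG1 of 0.600 (0.571 to 0.631) and 1.01 (0.967 to 1.05). PTP4A1, a phosphatase, had 0.668 and 0.734, and SERTAD1 had 1.24 and 1.47.

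Apoptosis and death receptor genes had 26 of 32 members measured and medians of -0.02 and 0.10. SHISA5, an inducer of cell death at the endoplasmic reticulum, had 890, 2099 and 2134 counts and ratios of 2.20 (2.03 to 2.38) and 2.32 (2.15 to 2.52). With the trend removed its log2 ratio after IRF3 knockdown was 0.99, just short of 2-fold. APAF1, the scaffold of the apoptosome, was lower by 2-fold or more with YAP siRNA, with 240, 148 and 112 counts and a ratio of 0.453 (a log2 ratio of -0.65 with the trend removed). The killer protein gene BAK1 had 1.40 and 1.21, TP53I3 had 1.34 and 1.38, and PHLDA1 had 0.689 and 0.763.

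For metabolism, redox and autophagy genes 25 of 28 were measured, with medians of 0.02 and 0.03. DRAM1, a lysosomal protein of autophagy, had 42, 18 and 36 counts and a ratio of 0.400 with IRF3 siRNA, and LPIN1, a phosphatidate phosphatase, had 0.487 (0.433 to 0.547) and 0.582 (0.520 to 0.650). After IRF3 knockdown their log2 ratios with the trend removed were -0.96 and -0.59. ALDH4A1, an enzyme of proline breakdown, was split, at 1.24 (1.13 to 1.36) with IRF3 siRNA and 0.644 (0.578 to 0.717) with YAP siRNA. RETSAT, a retinol saturase, had 1.45 and 1.39.

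Repair and RNA genes had 22 of 23 members measured and medians of -0.29 and -0.14. The zinc finger gene ZNF561 had ratios of 0.398 (0.328 to 0.481) and 0.606 (0.512 to 0.717). REV3L, the catalytic subunit of polymerase zeta, had 63, 33 and 27 counts and was past 2-fold lower in both, at 0.489 and 0.416. With the trend removed the log2 ratio of ZNF561 after IRF3 knockdown was -0.93, and those of REV3L were -0.28 and -0.59. FAM210B had 0.674 and 0.761, ZNF337 had 0.633 and 1.04, and DCP1B, a decapping factor, had 0.800 and 0.677.

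Among secreted and surface genes 25 of 27 reached the minimum, all within 2-fold of control, with a median of -0.04 in both. ORAI3, a calcium channel subunit, had 1.06 (0.909 to 1.25) with IRF3 siRNA and 1.92 (1.67 to 2.22) with YAP siRNA. THBS1, the matrix protein thrombospondin, had 0.689 and 0.627, RAP2B had 0.801 and 1.02, and the growth factor gene HBEGF had 0.748 and 0.819.

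Upstream regulators and cofactors of p53 had all 43 members measured and medians of -0.33 and -0.21. With IRF3 siRNA 3 (6.98%) were lower by 2-fold or more, and with YAP siRNA 2 (4.65%), close to the shares of all genes. PRKDC, the damage kinase DNA-PK, had ratios of 0.392 and 0.352, and HIPK1, a kinase that binds p53, had 0.418 (0.371 to 0.471) and 0.400 (0.353 to 0.452). HIPK2, which phosphorylates p53 in apoptosis, had 0.360 and 0.5003, the latter just short of 2-fold. With the trend removed the log2 ratios after IRF3 knockdown were -0.83 for both PRKDC and HIPK1 and -0.91 for HIPK2, and HIPK1 had -0.94 after YAP knockdown. The ubiquitin ligase gene HUWE1 had 0.585 and 0.538, and EP300, an acetyltransferase coactivator of p53, had 0.576 and 0.555.

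Genes that p21 lowers through the DREAM repressor complex all reached the minimum (28 of 28) and lay within 2-fold, at medians of 0.01 and -0.05. BUB1B had ratios of 0.628 (0.563 to 0.701) and 0.562 (0.501 to 0.630), TTK of 0.527 and 0.541, E2F8 of 0.558 and 0.591, and BUB1 of 0.696 and 0.739. CDKN1A, the gene of p21, was level in the same libraries.

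Of 159 list genes kept on the FPKM plus 1 scale, those closest to a member in the pair of log2 ratios against control were found by distance. PLK3, DGKA and CCNG1 were nearest to CDKN1A (distances 0.0080, 0.0161 and 0.0168), and HIPK1, HUWE1 and EP300 nearest to TP53INP1 (0.0865, 0.219 and 0.386). These rest on 2 ratios from 3 libraries and describe likeness only. By counts TP53INP1 had log2 ratios of -1.56 and -1.48, HUWE1 of -0.77 and -0.89, and EP300 of -0.80 and -0.85. The nearness of HUWE1 and EP300 to TP53INP1 thus holds on the FPKM plus 1 scale only. HIPK1, at -1.26 and -1.32, and PRKDC, at -1.35 and -1.51, were closer to TP53INP1 by counts.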

How the data were processed

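Total RNA of 3 HGC-27 samples went into Illumina libraries, per the labels' protocols. Each library has FPKM values and raw counts in the table the authors deposited, per the file headers. Reads were aligned with TopHat2 2.0.9 on hg38, per the submitters' processing notes. The sources used here do not name the gene counter, the annotation release or a strand setting. No value column was left unused.

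The members and gene lists were chosen with earlier results of these data known. The log2 ratio of FPKM plus 1 was computed for the 11103 genes whose mean FPKM reached 1 and called at 2-fold. Count ratios per column total carry exact Clopper-Pearson 95% intervals. Calling count ratios at 2-fold, with a mean count of at least 30, was added after the values were seen. The named genes are the 9 members, the targeted genes, up to 4 genes of each list with the largest FPKM plus 1 ratio against control, and the 3 list genes nearest to MDM2, CDKN1A and TP53INP1. Those nearest to MDM2 are not reported here. APAF1, DRAM1, REV3L and HIPK2 were named after their values were seen, as list genes past 2-fold by counts.

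Exon lengths, GC content and exon overlaps came from GENCODE release 29 (same build), and promoter windows from RefSeq. The trend was an additive spline with 4 degrees of freedom each for level, length and GC content. The scripts were tested on simulated data. TMM factors came from edgeR 4.0.16 and size factors from DESeq2 1.42.0 (R 4.3.3), intervals from scipy 1.17.1 and splines from patsy 1.0.2, under Python 3.11.15. Alternatives were another pseudocount, filter, fold, scaling and length, the removed trend and count ratios.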

Additional observations from a re-analysis of the deposited data

How the results depend on the processing

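With 1 library per group no library could be left out. No paired analysis was possible because each group has 1 library. On the FPKM plus 1 scale 0 of the 5 members kept were called in each comparison. With a pseudocount of 0.1 FPKM, with TMM-scaled CPM and with DESeq2 size factors, 1 member was called in each knockdown against control. A mean of at least 5 FPKM, no filter, a 3-fold rule, centring, summed overlapping genes and the trend removed on the FPKM scale gave 0 members in each comparison. The following settings were chosen after seeing the data. By count ratio 5 members were called for IRF3 knockdown, 4 for YAP knockdown and 1 between the knockdowns. With the trend removed these were 4, 1 and 1, and with TMM scaling 5, 3 and 1. The median log2 ratio of the members with IRF3 siRNA was -1.28 by count ratio, -0.62 with the trend removed and -1.18 with TMM scaling. With YAP siRNA it was -0.63 by count ratio, -0.21 with the trend removed and -0.54 with TMM scaling. The count ratio and FPKM medians cover 9 and 5 genes, so they are not over the same genes. Counting limits MDM2 (18 counts) and RRM2B (21 counts) with IRF3 siRNA most.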
